A study of Mus musculus with 6 samples.

Results

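The genes described here encode the cyclins, the cyclin-dependent kinases (CDKs) that they activate, the CDK inhibitors, and the Cdc25 phosphatases and Wee1 kinase that act on the CDKs themselves. The set holds 40 genes, taken by name from textbook cell cycle biology. The rule uses no measured value, but it was written with earlier results of these data known. All 40 had at least 1 probe on the array, out of 34938 genes with a probe, and 34 were well enough detected to be tested, out of 22109 genes tested.

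RNA came from G1E-ER-GATA-1 cells, mouse erythroid progenitors that lack endogenous GATA-1 and carry a fusion of GATA-1 to the hormone-binding part of the oestrogen receptor, which oestradiol activates. The knockdown group (Mi2β siRNA, 3 arrays) received siRNA against Mi2β, the chromatin-remodelling ATPase of the NuRD complex that Chd4 encodes. The control group (control siRNA, 3 arrays) received a non-targeting siRNA. Both groups were nucleofected with siRNA at 0 h and again at 24 h, were given β-estradiol at 24 h and were collected at 48 h, so every array holds cells with GATA-1 active for 24 h and no array holds untreated cells. All cells are of this line, which was kept in puromycin with erythropoietin and Kit ligand. Whether replicates were separate cultures is not stated in the labels, so the p-values cover only the spread among these arrays, and part or all of it may be technical.

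D-type cyclins with Cdk4 or Cdk6 start the phosphorylation of the retinoblastoma protein that lets a cell leave G1, cyclin E and cyclin A with Cdk2 carry it through S phase, and cyclins A and B with Cdk1 drive mitosis. INK4 inhibitors bind Cdk4 and Cdk6, whereas Cip/Kip inhibitors bind cyclin-CDK complexes more widely. Maturing erythroblasts pass through a limited number of divisions and then leave the cell cycle, and GATA-1 is known to regulate cell cycle genes as they do so. A further branch of the family, with Cdk7, Cdk8 and Cdk9 and cyclins C, H, K, L and T, acts mainly on RNA polymerase. Within it, Cdk7 with cyclin H also activates other CDKs.

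Values are log2 of the array's processed spot signal minus the 75th percentile of that array, so that 1 unit is a factor of 2. A gene is represented by its brightest probe. A difference is the knockdown mean minus the control mean, and "rose" and "fell" are used only of genes with an adjusted p under 0.05 by limma, adjusted over all 22109 genes. Between 48.9% and 74.0% of probe spots were well above background on the knockdown arrays, against 53.4% to 56.8% on the control arrays. Array values correlated at 0.9796 to 0.9872 between groups and 0.9870 to 0.9942 within groups, so the 2 ranges overlapped slightly. These correlations are across genes, and genes are not independent replicates. Chd4 itself was at 4.62, 4.60 and 4.54 on the knockdown arrays and at 5.93, 6.00 and 5.75 on the control arrays, a fall of 2.48-fold (log2 difference -1.31, SE 0.10, adjusted p = 0.00161 by limma). Of 10 erythroid markers, 9 had a probe and all 9 were detected on all 6 arrays, of which Alas2 rose and Slc4a1 and Ahsp fell. Of 6 megakaryocyte markers, 5 were tested, of which Pf4 and Gp9 fell and 0 rose. Itga2b of the same list lay the other way, higher on every knockdown array by 1.51 (SE 0.35, adjusted p = 0.0505 by limma). Of 15 mast cell, macrophage or granulocyte and lymphoid markers, 9 were tested and none passed the test by limma, with 3 at an unadjusted p under 0.05. The 3 tested mast cell markers were all higher on every knockdown array, Cpa3 by 0.61 (adjusted p = 0.0592 by limma), Kit by 0.40 (0.117) and Tpsb2 by 0.23 (0.209), and the macrophage marker Csf1r was lower on every knockdown array, by -0.33 (0.0742). Cpa3 was dim, with means of -2.85 in knockdown and -3.46 in control. Kit is the receptor for the Kit ligand in which the line was kept, so it does not mark mast cells alone. Mcpt8, Fcer1a and Lyz2 were well above background on no array. The part of these marker differences in the cell cycle values was not tested.

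With Mi2β knocked down, 3 cyclins fell and 1 CDK inhibitor rose. Ccnd3 and Ccnd2, the D-type cyclins these cells expressed above background, and Ccnb2, a mitotic cyclin, were the 3 genes that fell. Cdkn1a, the Cip/Kip inhibitor that p53 induces, was the gene that rose. The other 30 tested genes did not pass the threshold, although 15 of the 34 (44.1%) had an unadjusted p under 0.05 by limma, beside 24.0% of all genes tested. The 4 calls are 11.8% of the tested cyclin, CDK and inhibitor genes, beside 9.59% of all genes tested. The 3 falls are 8.82%, beside 4.59% of all genes, and the 1 rise is 2.94%, beside 5.0% of all genes. With counts this small none of these shares is a result about the set.

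Of the 34 genes, 23 had differences below 0 and 11 above. The share of all genes below 0 was not counted, so this is no result about the set. The median difference was -0.16, against -0.03 over all genes tested. Most members had bright probes. In the brightest of 4 equal bins by mean signal the median was -0.27 for the members and -0.094 for all genes. In the next bin it was -0.16 and -0.085. In 15 genes all 3 knockdown arrays lay below all 3 control arrays, which is 44.1% of the set and compares with 18.4% of all genes tested. In 4 genes (Ccne1, Cdk4, Cdk8 and Cdkn1a) all 3 knockdown arrays lay above all 3 control arrays, which is 11.8% of the set and compares with 12.7% of all genes tested.

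**Figure D1:**
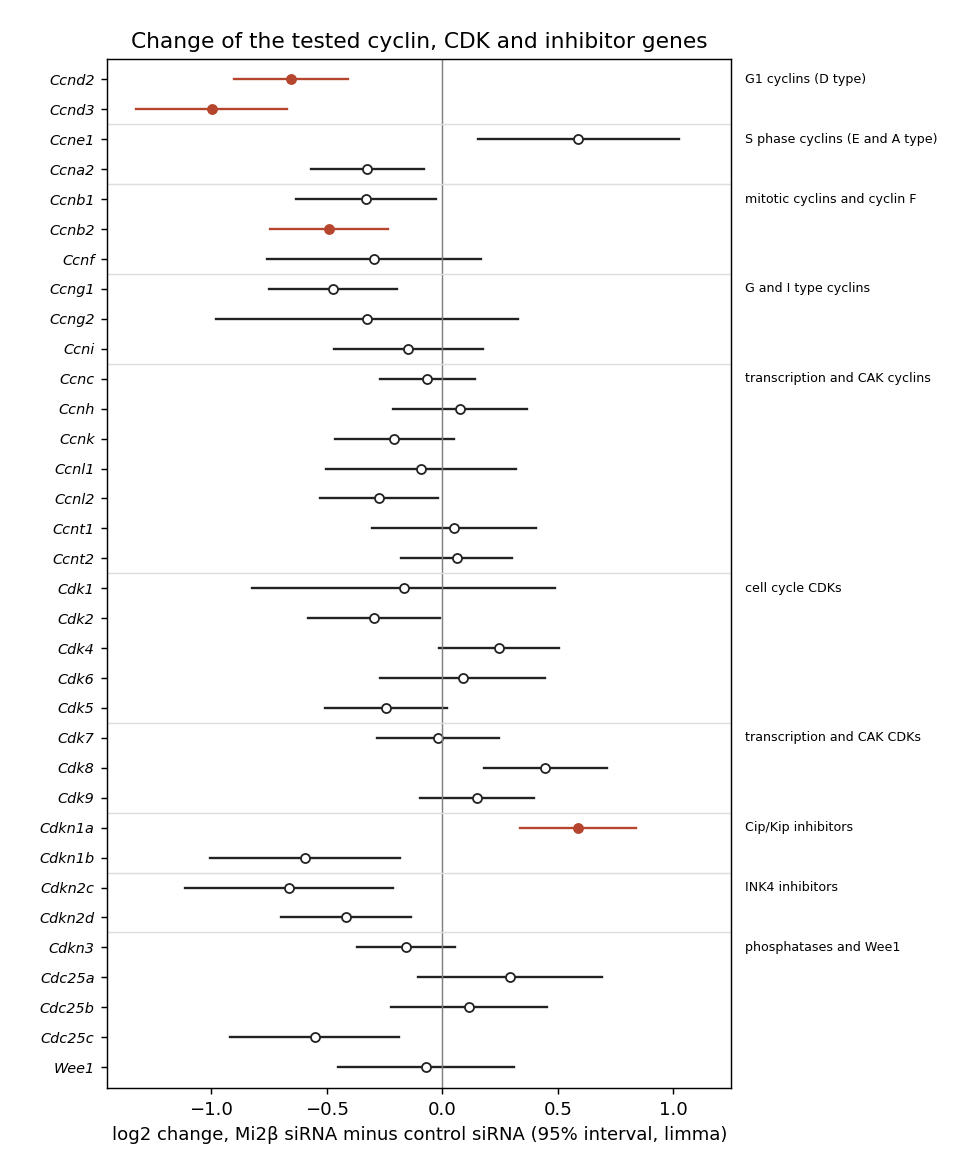
Log2 difference (knockdown minus control, horizontal axis) of the 34 tested genes, grouped by role, with the 95% interval from limma (3 arrays per group). Filled points mark the 4 genes past the threshold, of which Ccnd2, Ccnd3 and Ccnb2 lie left of 0 and Cdkn1a lies right of 0, and open points mark the other 30.

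Among the D-type cyclins, which pair with Cdk4 and Cdk6, both detected members fell and the third was not detected. Ccnd3 encodes cyclin D3, which in mouse erythroblasts helps to set how many divisions precede enucleation. It was at 6.86, 6.87 and 7.11 on the knockdown arrays and at 8.07, 8.02 and 7.74 on the control arrays. The highest knockdown array lay well below the lowest control array. Ccnd3 thus fell 2.00-fold (log2 difference -0.999, SE 0.13, 95% interval -1.33 to -0.67, adjusted p = 0.00886 by limma). A transcript level in a bulk sample does not tell fewer expressing cells from less RNA per cell, here or for any gene below. The 2 probes for Ccnd3 are on mouse chromosome 17 (mm9, 47736579 to 47736638 and 47736267 to 47736326), and the dimmer of them gave -1.04 (SE 0.17, adjusted p = 0.0201 by limma over 31852 probes). Without knockdown replicate 1 the brighter probe gave -0.95 with an adjusted p of 0.0543 by limma, and without any other array the adjusted p ranged from 0.0159 to 0.0433.

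Ccnd2, which encodes cyclin D2, was at 4.88, 4.73 and 4.89 on the knockdown arrays and at 5.57, 5.49 and 5.39 on the control arrays. The groups did not overlap, and each had an SD of 0.09. Ccnd2 fell 1.57-fold (log2 difference -0.65, SE 0.10, 95% interval -0.90 to -0.41, adjusted p = 0.0144 by limma). The adjusted p was above 0.05 by limma without knockdown replicate 1 (0.0701), knockdown replicate 2 (0.0521), control replicate 1 (0.0627) or control replicate 2 (0.0538), with differences from -0.70 to -0.60 over the 6 arrays left out in turn. Ccnd2 rests on 1 probe, shown because the whole result for this gene is read through it. Its 60 bases lie on chromosome 6 at 127098696 to 127098755 (mm9, minus strand) and are, 5′ to 3′,
Ccnd2 probe: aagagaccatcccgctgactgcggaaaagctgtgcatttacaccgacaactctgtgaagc
The exon under the probe is not given by the files. The remaining D-type cyclin, Ccnd1, was well above background on 0 of 6 arrays, at -5.33, -6.77 and -6.62 on the knockdown arrays and at -5.37, -6.94 and -5.45 on the control arrays. These values are background and have no order.

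**Figure D2:**
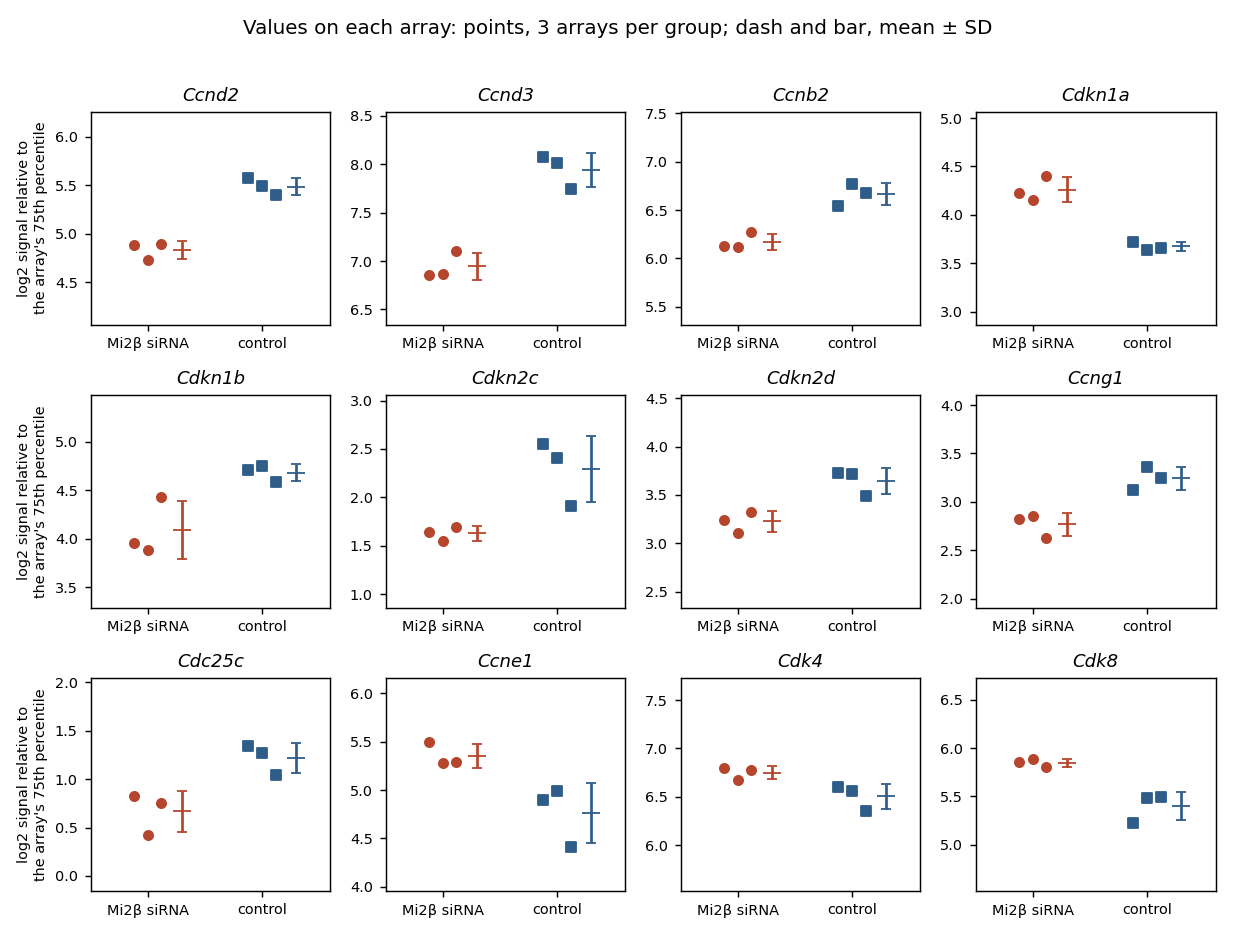
Log2 signal relative to the array's 75th percentile for 12 genes, with the 3 knockdown arrays (circles) left of the 3 control arrays (squares) and the mean and SD beside each group. Every panel spans the same height, and the panels for Ccnd3, Ccnd2, Ccnb2 and Cdkn1a show the 4 genes past the threshold.

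Of the cyclins of S phase, 2 were detected and neither passed the threshold, and they lay on opposite sides of 0. Ccne1 encodes cyclin E1, the Cdk2 partner at the start of S phase. It was at 5.49, 5.28 and 5.29 on the knockdown arrays and at 4.90, 4.99 and 4.41 on the control arrays, so every knockdown array was higher. The difference was 0.59 (SE 0.18, 95% interval 0.15 to 1.02, adjusted p = 0.106 by limma), and the other Ccne1 probe gave 0.47 (SE 0.14). Ccna2 encodes cyclin A2, used in S phase and at mitosis. It was at 5.90, 5.89 and 5.79 on the knockdown arrays and at 6.23, 6.26 and 6.06 on the control arrays, with a difference of -0.32 (SE 0.10, adjusted p = 0.111 by limma). Ccne2 and Ccna1, the second cyclin E and the germ cell cyclin A, were well above background on 0 of 6 arrays.

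All 3 genes for mitotic cyclins and cyclin F were below 0, and 1 of them fell. Ccnb2, for cyclin B2, a Cdk1 partner, was at 6.12, 6.12 and 6.27 on the knockdown arrays and at 6.54, 6.77 and 6.67 on the control arrays. The groups did not overlap, and Ccnb2 fell 1.41-fold (log2 difference -0.49, SE 0.10, 95% interval -0.75 to -0.23, adjusted p = 0.0402 by limma). This call was near the threshold: with any 1 of the 6 arrays left out the adjusted p lay between 0.0691 and 0.169 by limma, and with the slide row as a block it was 0.0653. Ccnb1, for cyclin B1, was at 5.74, 5.56 and 5.70 on the knockdown arrays and at 6.02, 6.16 and 5.81 on the control arrays (-0.33, SE 0.12, adjusted p = 0.178 by limma). Its 2 other probes gave -0.31 and -0.27. Ccnf, for cyclin F, part of a ubiquitin ligase and not a CDK activator, had a difference of -0.30 (SE 0.19), with overlapping groups.

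Promoters are shown for 3 of the 4 genes past the threshold, to set the annotated starts beside the changes. The sequences come from RefSeq (GRCm38.p6), 250 bases before each transcription start to 30 bases after it, and 31 of the 40 genes matched an entry. CCAAT boxes (CCAAT) and the element called CHR (TTTGAA) are the usual letters of mitotic gene promoters, and both strands were searched. CCAAT was found in 20 of the 31 genes (64.5%), against 39.7% of 27025 genes with an entry. TTTGAA was found in 6 (19.4%), against 19.5% of all genes. An E2F-like string (TTTNNCGC) was in 5 (16.1%), against 5.57% of all genes, and the erythroid GATA string AGATAA was in 0 of 31, against 12.2% of all genes. In capitals below are CCAAT and TTTGAA, which do not overlap here.
Ccnb2 promoter, minus strand, chr9:70421525-70421804: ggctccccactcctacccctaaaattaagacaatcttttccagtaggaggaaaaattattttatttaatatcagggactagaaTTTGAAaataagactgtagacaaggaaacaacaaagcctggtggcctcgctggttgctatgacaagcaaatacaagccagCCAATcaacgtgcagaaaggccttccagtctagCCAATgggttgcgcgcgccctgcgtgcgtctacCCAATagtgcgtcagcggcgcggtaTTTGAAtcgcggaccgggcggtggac
Ccnd3 promoter, plus strand, chr17:47504801-47505080: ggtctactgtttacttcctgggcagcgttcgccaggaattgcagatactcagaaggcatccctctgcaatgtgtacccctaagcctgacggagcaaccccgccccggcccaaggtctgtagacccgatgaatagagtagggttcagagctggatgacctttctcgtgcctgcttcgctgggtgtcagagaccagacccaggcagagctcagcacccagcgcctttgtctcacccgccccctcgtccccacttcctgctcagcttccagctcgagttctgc
Ccnd3 promoter, plus strand, chr17:47593217-47593496: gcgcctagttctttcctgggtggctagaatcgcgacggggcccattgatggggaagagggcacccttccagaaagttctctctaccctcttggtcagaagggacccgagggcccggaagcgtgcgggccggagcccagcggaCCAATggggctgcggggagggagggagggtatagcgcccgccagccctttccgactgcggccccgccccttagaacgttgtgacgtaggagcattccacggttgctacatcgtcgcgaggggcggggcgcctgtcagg
The Ccnb2 promoter carries CCAAT with its first base at -87, -54 and -21 relative to the start (the first transcribed base is 1) and TTTGAA at -167 and at 5. Of the listed Ccnd3 starts, the downstream one has CCAAT at -108 and the upstream one has neither string. These matches are letters in a window and are not evidence of a bound factor.

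The inhibitors moved in both directions. Cdkn1a encodes the Cip/Kip inhibitor that p53 induces after DNA damage. Its brightest probe, read as 10 spots, was at 4.22, 4.15 and 4.40 on the knockdown arrays and at 3.72, 3.64 and 3.66 on the control arrays. Every knockdown array was above every control array, and Cdkn1a rose 1.5-fold (log2 difference 0.59, SE 0.10, 95% interval 0.33 to 0.84, adjusted p = 0.0217 by limma). The adjusted p lay between 0.0578 and 0.0958 by limma without knockdown replicate 1 or 3 or any 1 of the control replicates, and at 0.0473 without knockdown replicate 2.

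The rise in Cdkn1a was seen on 1 of its 3 probes. The bright probe (chromosome 17, 29237377 to 29237436, mm9) gave 0.59, whereas a probe at 29235299 to 29235358 gave 0.15 (SE 0.10, adjusted p = 0.465 by limma over all probes). A probe at 29227986 to 29228045, designed on another transcript variant, gave -0.067 (SE 0.15, adjusted p = 0.838). The 2 further probes were dim, with knockdown means of -2.74 and -2.32 and control means of -2.89 and -2.25, and averaged over the 3 probes the difference was 0.22 (adjusted p = 0.222 by limma). The RefSeq starts of Cdkn1a are shown because the probes differ by transcript, with capitals marking CATG, 6 further bases and CATG, a spacing that resembles a p53 element.
Cdkn1a upstream start, plus strand, chr17:29090729-29091008: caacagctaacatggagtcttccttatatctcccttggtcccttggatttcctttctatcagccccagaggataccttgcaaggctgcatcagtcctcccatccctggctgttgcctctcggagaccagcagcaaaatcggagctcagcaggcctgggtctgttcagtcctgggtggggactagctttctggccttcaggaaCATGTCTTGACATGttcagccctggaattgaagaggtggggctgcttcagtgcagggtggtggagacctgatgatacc
Cdkn1a downstream start, plus strand, chr17:29093519-29093798: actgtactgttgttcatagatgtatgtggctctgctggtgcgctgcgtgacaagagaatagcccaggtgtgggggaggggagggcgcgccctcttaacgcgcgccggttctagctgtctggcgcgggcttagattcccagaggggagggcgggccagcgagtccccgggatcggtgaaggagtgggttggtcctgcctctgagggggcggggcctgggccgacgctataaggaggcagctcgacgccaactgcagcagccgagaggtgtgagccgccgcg
The string begins at -48 of the upstream start and is absent from the window at the downstream start. Of the 31 matched genes Cdkn1a alone had it, beside 0.807% of all genes.

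Cdkn1b, for the Cip/Kip inhibitor that accumulates as cells stop dividing, went the other way without passing the threshold on its brightest probe. It was at 3.95, 3.89 and 4.43 on the knockdown arrays and at 4.71, 4.75 and 4.59 on the control arrays. All 3 knockdown arrays were lower, replicate 3 by the least, and the difference was -0.59 (SE 0.17, adjusted p = 0.0876 by limma). The other Cdkn1b probe, with means of -1.79 in knockdown and -0.84 in control, gave -0.95 (SE 0.11, adjusted p = 0.00600 by limma over all probes). Without knockdown replicate 3 the brightest probe gave -0.76 (adjusted p = 0.0264 by limma). Cdkn1c, the imprinted Cip/Kip gene, was well above background on 1 knockdown array and 0 control arrays, at -5.80, -4.42 and -6.28 on the knockdown arrays and at -6.78, -6.73 and -6.74 on the control arrays, and was not tested. Values this close to background have no order.

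Among the INK4 inhibitors, which bind Cdk4 and Cdk6, Cdkn2c and Cdkn2d were detected on all arrays and neither passed the threshold. Cdkn2c was at 1.64, 1.55 and 1.70 on the knockdown arrays and at 2.55, 2.41 and 1.91 on the control arrays, with a difference of -0.66 (SE 0.18, adjusted p = 0.0837 by limma). Cdkn2d was at 3.24, 3.11 and 3.32 on the knockdown arrays and at 3.72, 3.72 and 3.49 on the control arrays, with a difference of -0.42 (SE 0.11, adjusted p = 0.0823 by limma). In both genes all knockdown arrays lay below all control arrays, and control replicate 3 was the lowest control. Without that array the Cdkn2c difference was -0.86 (adjusted p = 0.0208 by limma). Cdkn2a was well above background on 1 knockdown array and 0 control arrays, at -7.35, -4.26 and -6.50 on the knockdown arrays and at -6.21, -5.90 and -6.97 on the control arrays. Cdkn2b was so on 1 knockdown array and 1 control array, at -7.10, -4.17 and -6.23 on the knockdown arrays and at -5.48, -0.30 and -6.05 on the control arrays, where control replicate 2 stood apart. Neither Cdkn2a nor Cdkn2b was tested. Their highest knockdown value, and that of Cdkn1c, was on replicate 2, the array with the most probe spots well above background (74.0%).

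**Figure D3:**
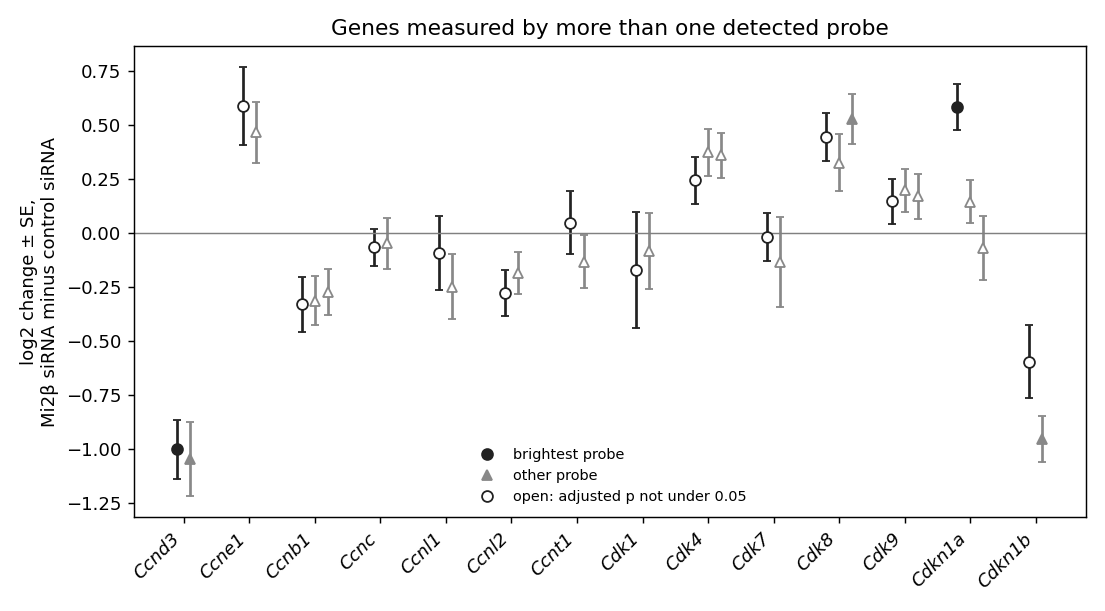
Log2 difference (knockdown minus control) with its SE for each detected probe of the 14 genes that had more than 1, from a fit over 31852 probes. The probes of Ccnd3 lie together, at -0.999 and -1.04, those of Cdkn1a run from -0.067 to 0.59, and filled symbols have an adjusted p under 0.05.

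None of the 5 cell cycle CDKs passed the threshold by limma, with 1 at an unadjusted p under 0.05. Cdk4, the partner of the D-type cyclins, was at 6.80, 6.68 and 6.78 on the knockdown arrays and at 6.60, 6.55 and 6.36 on the control arrays. It was higher on every knockdown array, by 0.24 (SE 0.11, adjusted p = 0.234 by limma), and its 2 other probes gave 0.38 and 0.36. Cdk6, the other D cyclin partner, differed by 0.088 (SE 0.15). Cdk2, the partner of cyclins E and A, was at 1.26, 1.53 and 1.39 on the knockdown arrays and at 1.69, 1.57 and 1.80 on the control arrays, with a difference of -0.29 (SE 0.12, adjusted p = 0.196 by limma). Cdk1, the mitotic kinase, had overlapping groups and a difference of -0.17 (SE 0.27, 95% interval -0.82 to 0.49), an interval wide enough to hold changes of either sign. Cdk5, best known from neurons, differed by -0.24 (SE 0.11, adjusted p = 0.242 by limma), with all knockdown arrays below all control arrays.

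The enzymes that switch CDKs by phosphate showed no change past the threshold by limma, with 1 of 5 at an unadjusted p under 0.05. Cdc25c, for a phosphatase that activates Cdk1 at mitosis, was at 0.83, 0.43 and 0.75 on the knockdown arrays and at 1.34, 1.28 and 1.05 on the control arrays. The groups did not overlap, and the difference was -0.55 (SE 0.15, adjusted p = 0.0775 by limma). Its relatives Cdc25a and Cdc25b, which also act earlier in the cycle, had differences of 0.29 (SE 0.16) and 0.11 (SE 0.14) and overlapping groups. Cdkn3, for a phosphatase that acts on the activating site of CDKs, was lower on every knockdown array by -0.16 (SE 0.09, adjusted p = 0.345 by limma). Wee1, for the kinase that holds Cdk1 inactive, differed by -0.069 (SE 0.16).

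The atypical cyclins of the G and I type included 1 gene close to the threshold. Ccng1, which p53 is known to induce along with Cdkn1a, was at 2.82, 2.85 and 2.63 on the knockdown arrays and at 3.13, 3.36 and 3.24 on the control arrays. It was lower on every knockdown array, by -0.47 (SE 0.11, adjusted p = 0.0555 by limma), whereas Cdkn1a was higher. Whether p53 had a part in either difference was not tested. Ccng2, for a cyclin linked to cell cycle arrest, had a difference of -0.32 (SE 0.27), and Ccni had -0.15 (SE 0.13). The groups overlapped in both.

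In the transcription branch, 10 genes were tested and 0 passed the threshold by limma, with 2 at an unadjusted p under 0.05. Cdk8, the kinase of the Mediator module, was at 5.85, 5.88 and 5.81 on the knockdown arrays and at 5.23, 5.48 and 5.49 on the control arrays. It was higher on every knockdown array, by 0.45 (SE 0.11, adjusted p = 0.0585 by limma), and its 2 other probes gave 0.53 (adjusted p = 0.0484 by limma over all probes) and 0.33. Its cyclin, Ccnc, differed by -0.065 (SE 0.08). Cdk7 and Ccnh, the kinase and cyclin that activate other CDKs and belong to TFIIH, differed by -0.018 (SE 0.11) and 0.075 (SE 0.12). Cdk9, with Ccnt1 and Ccnt2 the elongation factor P-TEFb, differed by 0.15 (SE 0.10), and the cyclins T by 0.049 (SE 0.14) and 0.062 (SE 0.10).

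The remaining cyclins of this branch, Ccnl2, Ccnl1 and Ccnk, had differences below 0 that did not pass the threshold. Ccnl2, a cyclin L linked to splicing, was at 4.86, 4.73 and 4.97 on the knockdown arrays and at 5.16, 5.18 and 5.05 on the control arrays (-0.27, SE 0.10, adjusted p = 0.18 by limma). Its relative Ccnl1 differed by -0.091 (SE 0.17), with overlapping groups. Ccnk, which pairs with Cdk12 and Cdk13, was at 5.53, 5.56 and 5.56 on the knockdown arrays and at 5.65, 5.92 and 5.71 on the control arrays, a difference of -0.21 (SE 0.11, adjusted p = 0.302 by limma). In Ccnl2 and Ccnk the groups did not overlap.

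Neighbouring genes of the pathway were read from 3 further lists. The first list held pocket proteins, E2F and DP factors, the targets and effectors of the cyclin D kinases. It also held Lin9, Lin37, Lin52, Lin54, Mybl2 and Foxm1, which belong to none of these classes. Of its 19 tested genes, 3 fell (15.8%, beside 4.59% of all genes) and 0 rose by limma. An unadjusted p under 0.05 was found in 10 (52.6%, beside 24.0%). The median difference was -0.29, beside -0.03 over all genes tested. In 10 of the 19 (52.6%, beside 18.4% of all genes) the knockdown arrays all lay below the control arrays, and with array median scaling in 7, beside 13.2% of all genes. Lin9, Lin37, Lin52 and Lin54 were among the 10, so this share is not one of pocket proteins, E2F and DP factors alone. The list was not matched to all genes by mean signal, on which this share depended. Rb1, for the retinoblastoma protein, was at 3.54, 3.61 and 3.80 on the knockdown arrays and at 4.22, 4.39 and 4.34 on the control arrays (-0.67, SE 0.11, adjusted p = 0.0176 by limma). Tfdp2, for a DNA-binding partner of E2F, was at 0.69, 0.54 and 0.75 on the knockdown arrays and at 1.40, 1.54 and 1.21 on the control arrays (-0.72, SE 0.12, adjusted p = 0.0202 by limma). E2f2, an E2F that erythroid cells use for orderly cell cycle exit, was at 4.42, 4.42 and 4.49 on the knockdown arrays and at 4.99, 5.05 and 4.77 on the control arrays (-0.49, SE 0.11, adjusted p = 0.0439 by limma). The groups did not overlap in any of these 3 genes. Each of the 3 calls was lost with some arrays left out in turn: without control replicate 1 the adjusted p was 0.0519 for Rb1, 0.0807 for Tfdp2 and 0.142 for E2f2, without control replicate 2 it was 0.0654, 0.0631 and 0.117, and without knockdown replicate 1 or 2 it lay between 0.0646 and 0.173 for the 3 genes by limma. Rb1 also lost it without control replicate 3 (0.0535) and E2f2 without knockdown replicate 3 (0.0945).

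Of 18 tested other cyclins and CDKs, 1 rose (5.56%, beside 5.0% of all genes) and 0 fell by limma, 4 had an unadjusted p under 0.05 (22.2%, beside 24.0%), and the median was -0.09. These shares are near those of all genes. The gene that rose was Cdkl2, for a kinase related to CDKs, at -0.29, -0.06 and -0.31 on the knockdown arrays and at -1.32, -1.14 and -1.06 on the control arrays (0.95, SE 0.12, adjusted p = 0.00749 by limma). Its size differed between its 2 probes, whose mean gave 2.16, and its call was lost with array median scaling (0.72, adjusted p = 0.432 by limma), in row 1 alone (1.05, 0.0559) and with a replicate block (0.0517). Of 32 tested partners and regulators of CDKs, 1 rose and 2 fell (9.38% in either direction, beside 9.59% of all genes), with a median of -0.09. All knockdown arrays lay below all control arrays in 9 of the 32 (28.1%, beside 18.4% of all genes) and above them in 2 (beside 12.7%). With quantile normalization these counts were 4 and 3 (beside 18.9% and 15.2%), and with array median scaling 4 and 0 (beside 13.2% and 3.63%). Cables2, which binds CDKs, rose by 0.46 (SE 0.10, adjusted p = 0.0403 by limma). Cdk5rap2, a centrosome protein, and Cdc37, the chaperone partner that folds Cdk4 among other kinases, were the genes that fell, with differences of -0.45 (SE 0.09, adjusted p = 0.0372) and -0.47 (SE 0.10, adjusted p = 0.039). Leaving out any 1 of the 6 arrays ended all 3 of these calls, with adjusted p from 0.0607 to 0.174 by limma. Blocking on slide row in limma gave an adjusted p of 0.0729 for Cables2, 0.0593 for Cdk5rap2 and 0.0703 for Cdc37, and 0.068 for E2f2 of the preceding list.

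The cyclin, CDK and inhibitor genes were read from brighter probes than most genes. All genes tested were put in 4 bins of equal size by mean signal, and of the 34 members 19 were in the brightest bin, 11 in the next, 4 in the one after and 0 in the dimmest. Signal is a property of a probe as well as of a transcript, so this places the probes and not the abundance of the RNAs. Over all genes, the share with all knockdown arrays below all control arrays was 27.2% in the brightest bin and 28.6% in the next, and 14.2% and 3.56% in the dimmer bins. In the brightest bin 10 of the 19 members lay lower without overlap, and in the next 5 of 11. The background for the members is thus higher than the 18.4% over all genes tested. The further lists were not put in these bins, so 18.4% may be too low a background for them as well.

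**Figure D4:**
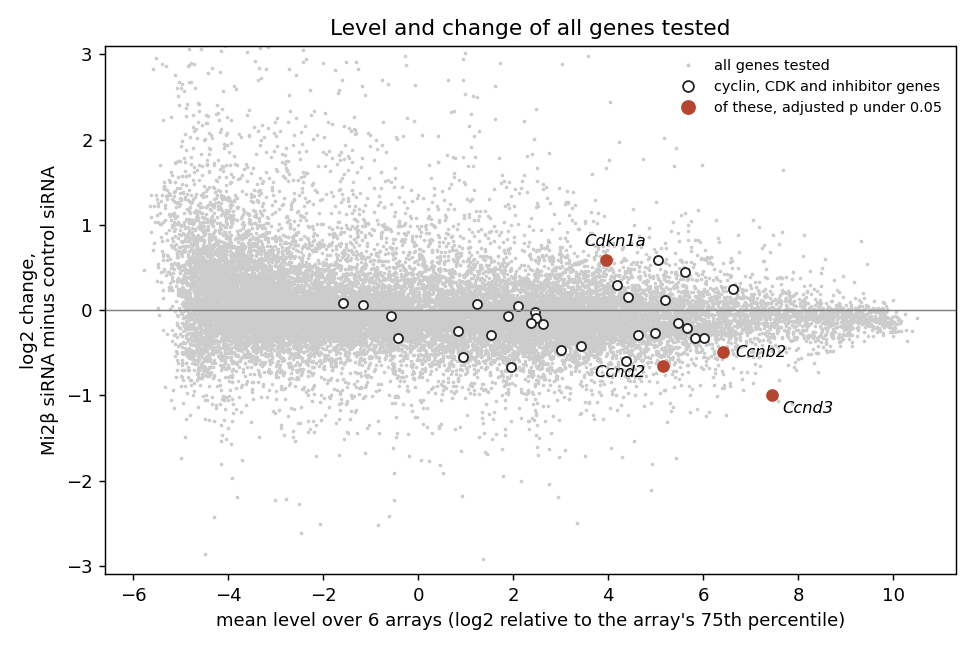
Log2 difference (knockdown minus control, vertical axis) against the mean log2 level over 6 arrays for all 22109 genes tested (grey), with the 34 cyclin, CDK and inhibitor genes as circles and the 4 past the threshold filled. The 34 sit in the brighter part of the range, and 78 genes of the grey cloud lie beyond the vertical axis.

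The number of genes with lower knockdown arrays depended on how the arrays were put on one scale. With 75th percentile scaling 15 genes lay lower without overlap and 4 higher (44.1% and 11.8%, beside 18.4% and 12.7% of all genes). Normexp background correction gave 15 and 5 (44.1% and 14.7%, beside 19.3% and 11.97% of all genes). Quantile normalization gave 13 and 6 (38.2% and 17.6%, beside 18.9% and 15.2% of all genes). These shares of all genes were not matched to the members by mean signal. With each array scaled to its median there were 5 and 0 (14.7% and 0%, beside 13.2% and 3.63% of all genes), so the share lying lower was near that of all genes. That last scaling moved the median of all genes to -0.27, and the median of the set to -0.40. Relative to the median of all genes, the median of the set was -0.13 with 75th percentile scaling, and so by construction with array median scaling, -0.11 with normexp and -0.03 with quantile normalization. Calls past the threshold numbered 1 rise and 3 falls with 75th percentile scaling, 3 and 8 with normexp, 4 and 3 with quantile normalization and 0 and 1 with array median scaling. Calls over all genes moved as well, from 496 to 2182 rises and from 190 to 2553 falls over the 19 alternatives run. The changing counts are thus not particular to the set.

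The 4 called genes kept their sign, as fitted, under each of these scalings. Relative to the median of all genes, Ccnd3 lay between -0.96 and -0.88 over 75th percentile, normexp and quantile scaling, Ccnd2 between -0.62 and -0.52, Ccnb2 between -0.46 and -0.38, and Cdkn1a between 0.62 and 0.71. Array median scaling differs from 75th percentile scaling by a constant per array, so these relative values are the same there and add no further check. With array median scaling Ccnd3 kept its call (adjusted p = 0.0307 by limma), and Ccnd2 (0.24), Ccnb2 (0.428) and Cdkn1a (0.725) did not. The 6 arrays lay in 2 rows of 1 slide, with replicates 1 and 2 of both groups in row 1. Within row 1 alone the differences were -1.18 for Ccnd3 (adjusted p = 0.0311 by limma), -0.73 for Ccnd2 (0.0756), -0.53 for Ccnb2 (0.133) and 0.51 for Cdkn1a (0.117). In row 2, with 1 array per group and so no test, they were -0.63, -0.50, -0.40 and 0.74 in the same order. With the row as a block the adjusted p was 0.0219 for Ccnd3, 0.0327 for Ccnd2, 0.0653 for Ccnb2 and 0.0387 for Cdkn1a.

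**Figure D5:**
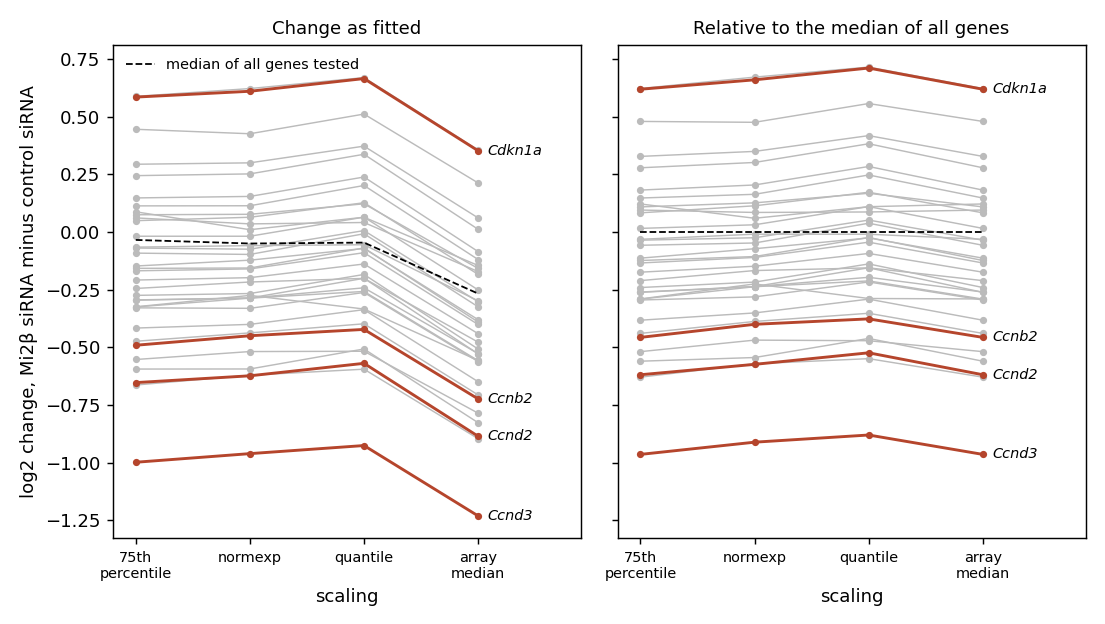
Log2 difference (knockdown minus control) of the 34 tested genes under 4 ways of scaling the arrays, as fitted (left) and relative to the median of all genes (right). Array median scaling moves all genes down in the left panel, to a median of -0.27, and the 4 named genes keep their sign in both panels. In the right panel the 75th percentile and array median values are equal by construction.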

How the data were processed

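RNA was measured on 6 one-colour Agilent arrays, 3 with Mi2β siRNA and 3 with control siRNA, grouped by the sample titles. The deposited spot intensities are linear and, per the file headers, were background-subtracted with version 10.7.3.1 of Agilent Feature Extraction. They were not normalized between arrays. The value table that the authors deposited has these intensities after rounding (100% within 0.005). Feature Extraction and limma are named in the submitters' processing notes, and the settings of that fit are not given in the sources used here. Probe coordinates are mm9, per the file headers.

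Each array had 62976 spots. Control spots were dropped, and log2 intensity minus the array's 75th percentile over all remaining spots was taken. Outlier-flagged spots were left out when the spots of a probe were averaged (55681 probes), but not from the percentile. The brightest probe stood for its gene, and genes well above background on at least 3 of 6 arrays were kept (22109). Of 29150 probes with a RefSeq accession, 27509 matched the RefSeq table and 2017 names were updated. limma 3.58.1 in R 4.3.3 (lmFit, eBayes, two-sided, no covariate) tested knockdown against control with Benjamini-Hochberg adjustment at 0.05 over all genes. Each member probe was also read from a fit over all detected probes, an alternative chosen after seeing the data.

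The fit was tested on simulated data of the same 22109 genes with 200 changed. It recovered 1.49% of genes changed 1.5-fold, 40.3% changed 2-fold and 65.2% changed 4-fold, with 2 false calls. The number of arrays limits the precision, and modest changes were mostly missed in the simulation. Only 200 genes were changed there, whereas the real fit called 2120, and the adjustment is stricter where fewer genes change. These recovery rates therefore do not carry over to the real data.

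The genes and lists were chosen with earlier results of these data known. Every member is named, per-array values are given for genes past the threshold and for the inhibitors and D-type cyclins, and up to 5 rises and 5 falls are named from each further list. Values of other members close to the threshold were chosen after they were seen. Alternatives covered normexp (offset 50), quantile and array median scaling, the detection filter, averaging over probes, slide row, replicate block, intensity trend, array weights, the deposited table and each array left out.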

Additional observations from a re-analysis of the deposited data

How the results depend on the processing

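Directions of Chd4, Ccnd3, Ccnd2, Ccnb2 and Cdkn1a held under all 19 alternatives run, and the Chd4 call held under each (adjusted p 1.92e-05 to 0.0267 by limma). Counts of calls did not. Rises and falls among the cyclin, CDK and inhibitor genes (1 and 3 as reported) were 3 and 8 with normexp, 4 and 3 with quantile normalization, 0 and 1 each in row 1 alone, without the detection filter and with array median scaling, 2 and 7 with detection on all 6 arrays, 3 and 9 with an intensity trend and 3 and 11 with array weights. In the further cell cycle lists (2 and 5 as reported) they were 4 and 9 with normexp, 0 and 0 with array median scaling or row 1 alone, 1 and 0 with no filter, 5 and 8 with all 6 arrays, 1 and 2 with the row block, 4 and 10 with a trend and 5 and 15 with weights. Over all genes (1106 and 1014 as reported), falls were 1674 with normexp and 1789 with a trend. Rises and falls over all genes were 496 and 335 with array median scaling, 661 and 332 with no filter, 496 and 227 in row 1 and 2182 and 2553 with weights. With 1 array left out, all genes gave 556 to 899 rises and 256 to 682 falls, the cyclin, CDK and inhibitor genes 0 to 1 and 0 to 3, and the further lists 1 to 1 and 0 to 3. Row 1 alone and the left-out arrays leave fewer arrays to the fit, and the filters change how many genes are tested. The cause of the other shifts was not tested.

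Under the replicate block the counts were 512 rises and 190 falls over all genes, and 0 and 0 in both sets of cell cycle genes (Ccnd3 adjusted p = 0.0745 by limma). Same-numbered arrays of the 2 groups correlated at 0.20, -0.32 and 0.13 in their deviations from the group means. Unlike-numbered arrays ran from -0.41 to 0.32. Deviations from a mean of 3 arrays sum to 0, so these values cannot decide whether the numbers are pairs. The main fit did not treat them as pairs. Same-numbered arrays also lay in the same slide row.

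Of the 30 members not past the threshold, 11 gained a call under some alternative. Small differences changed sign: 9 genes, none above 0.15 in size as reported, reversed in 23 cases. Ccnh was at -0.16 (array median scaling) and -0.020 (row 1), Ccnl1 at 0.084 (row 1), Ccnt1 at -0.18 (array median), -0.041 (mean over probes) and -0.0068 (row 1). With array median scaling Ccnt2 was at -0.17, Cdc25b at -0.12, Cdk6 at -0.14 and Cdk9 at -0.085. With quantile normalization and array weights Cdk7 was at 0.065 and 0.051 and Wee1 at 0.0064 and 0.045. With 1 array left out the values ran from -0.23 to 0.073 for Ccnl1, -0.035 to 0.17 for Ccnt1, -0.016 to 0.20 for Cdc25b, -0.026 to 0.17 for Cdk6, -0.098 to 0.027 for Cdk7 and -0.20 to 0.012 for Wee1.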
